A study of Mus musculus with 32 samples.

Results

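The genes described here carry water and sodium transport in the principal cell, the main cell type of the collecting duct. They are 9 genes, each represented by the brightest probe whose transcript accession led to its symbol, out of 20659 genes named on the array. They are the vasopressin V2 receptor gene Avpr2, the water channel genes Aqp2, Aqp3 and Aqp4, the genes of the 3 subunits of the epithelial sodium channel ENaC (Scnn1a, Scnn1b and Scnn1g), the mineralocorticoid receptor gene Nr3c2, and Hsd11b2. All 9 were well above background on all 32 arrays and passed the filter on dim probes, as did 23743 genes and transcripts in all.

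Each 1-colour Agilent array held kidney RNA of 1 animal, all of them male and 12 to 16 weeks old. miR-155-/- mice were of the strain B6.Cg-Mir155tm1.1Rsky/J and came from The Jackson Laboratory, while the wild type C57BL/6 mice came from Charles River Laboratories, so genotype and supplier cannot be told apart. Within each genotype, 1 group received saline and is labelled 0 h, and 3 groups were injected once with cisplatin at 20 mg/kg, which damages kidney tubules, and were sampled at 24, 48 and 72 h. The 8 groups held 4 animals each, and whole tissue was homogenised, so fewer cells of a type and less RNA per cell cannot be told apart in any value below.

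Vasopressin acts on the V2 receptor of the basolateral membrane. The receptor raises cAMP, and protein kinase A then drives aquaporin-2 to the apical membrane and raises Aqp2 transcription, while aquaporin-3 and aquaporin-4 let the water leave through the basolateral membrane. Aldosterone binds the mineralocorticoid receptor and raises ENaC activity at the apical membrane, partly through the kinase SGK1. The enzyme encoded by Hsd11b2 inactivates glucocorticoids in these cells, which leaves the receptor to aldosterone. The mature strand of the microRNA that the miR-155-/- mice lack is shown because it defines the genotype, with its seed (bases 2 to 8) in capitals, at chr16:84714143-84714165 on the plus strand of GRCm38.p6, from RefSeq. The array carried no probe for this microRNA or its host transcript, so the deletion was not checked here.
mmu-miR-155-5p: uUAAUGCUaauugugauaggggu

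The 250 bases before the transcription start were held by RefSeq tables for 6 of the 9 genes. Those of Aqp2, Aqp3 and Scnn1b are shown because these genes were all called lower 24 h after cisplatin in wild type kidneys, so that their starts can be read side by side. The windows lie on GRCm38.p6 at chr15:99578806-99579055 (Aqp2, plus strand), chr4:41098184-41098433 (Aqp3, minus strand) and chr7:121864788-121865037 (Scnn1b, plus strand). Capitals mark matches on either strand to 5 motifs, namely the cAMP response element TGACGTCA, its shorter form TGACG, the GATA motif AGATAA, the steroid receptor motif AGAACA and the tonicity element core TGGAAA.
Aqp2: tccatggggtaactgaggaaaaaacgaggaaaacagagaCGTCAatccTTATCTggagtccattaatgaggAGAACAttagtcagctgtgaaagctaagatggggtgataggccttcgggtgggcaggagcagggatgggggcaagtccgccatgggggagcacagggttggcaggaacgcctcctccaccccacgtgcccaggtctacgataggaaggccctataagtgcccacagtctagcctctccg
Aqp3: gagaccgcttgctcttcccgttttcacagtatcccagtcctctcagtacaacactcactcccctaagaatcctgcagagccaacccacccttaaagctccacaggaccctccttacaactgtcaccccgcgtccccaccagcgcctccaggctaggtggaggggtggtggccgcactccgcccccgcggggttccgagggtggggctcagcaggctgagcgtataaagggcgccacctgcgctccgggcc
Scnn1b: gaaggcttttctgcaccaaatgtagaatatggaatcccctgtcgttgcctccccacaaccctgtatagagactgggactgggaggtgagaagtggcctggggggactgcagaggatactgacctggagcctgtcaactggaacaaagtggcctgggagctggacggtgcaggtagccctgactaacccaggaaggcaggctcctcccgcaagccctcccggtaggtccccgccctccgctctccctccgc

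The Aqp2 window held TGACG with its first base at -211 from the start, AGATAA at -202 and AGAACA at -179, each once and none overlapping another. Of all 32851 windows of this length, 17.8% held TGACG, 9.99% held AGATAA, 16.1% held AGAACA, 18.6% held TGGAAA and 1.55% held the full TGACGTCA. The Aqp3, Scnn1b and Scnn1g windows held none of the 5. The Avpr2 window held AGAACA at -59 and -50, and the Nr3c2 window held TGGAAA at -184 and -112. These matches describe letters only, and absent matches say nothing of the factors.

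A level is the log2 of the processed intensity minus the 75th percentile of the same array, so 0 is the 75th percentile and a difference of 1 is a doubling. A gene was called where limma's adjusted p was under 0.05. Between 68.0% and 81.8% of probes were well above background on an array. On the first component over all genes (40.4% of the variance) miR-155-/- replicate 3 at 48 h (121) and replicate 3 at 24 h (87.8) lay farthest from the saline arrays, and they are given below with and without. Slides held 4 arrays each, and 8 slides were used. Slide accounted for a median of 43.5% of the variance within groups over 22825 genes, and for 9.75% to 85.4% for the members without missing values, of which Scnn1g had the highest share. Terms for 8 slides in a fit with 24 residual degrees of freedom take up a part of the variance by construction. Low shares are thus no sign of a slide effect. Fxyd4, Gata3, Hoxb7 and Elf5, other genes of the principal cell, were well above background on all 32 arrays.

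**Figure D1:**
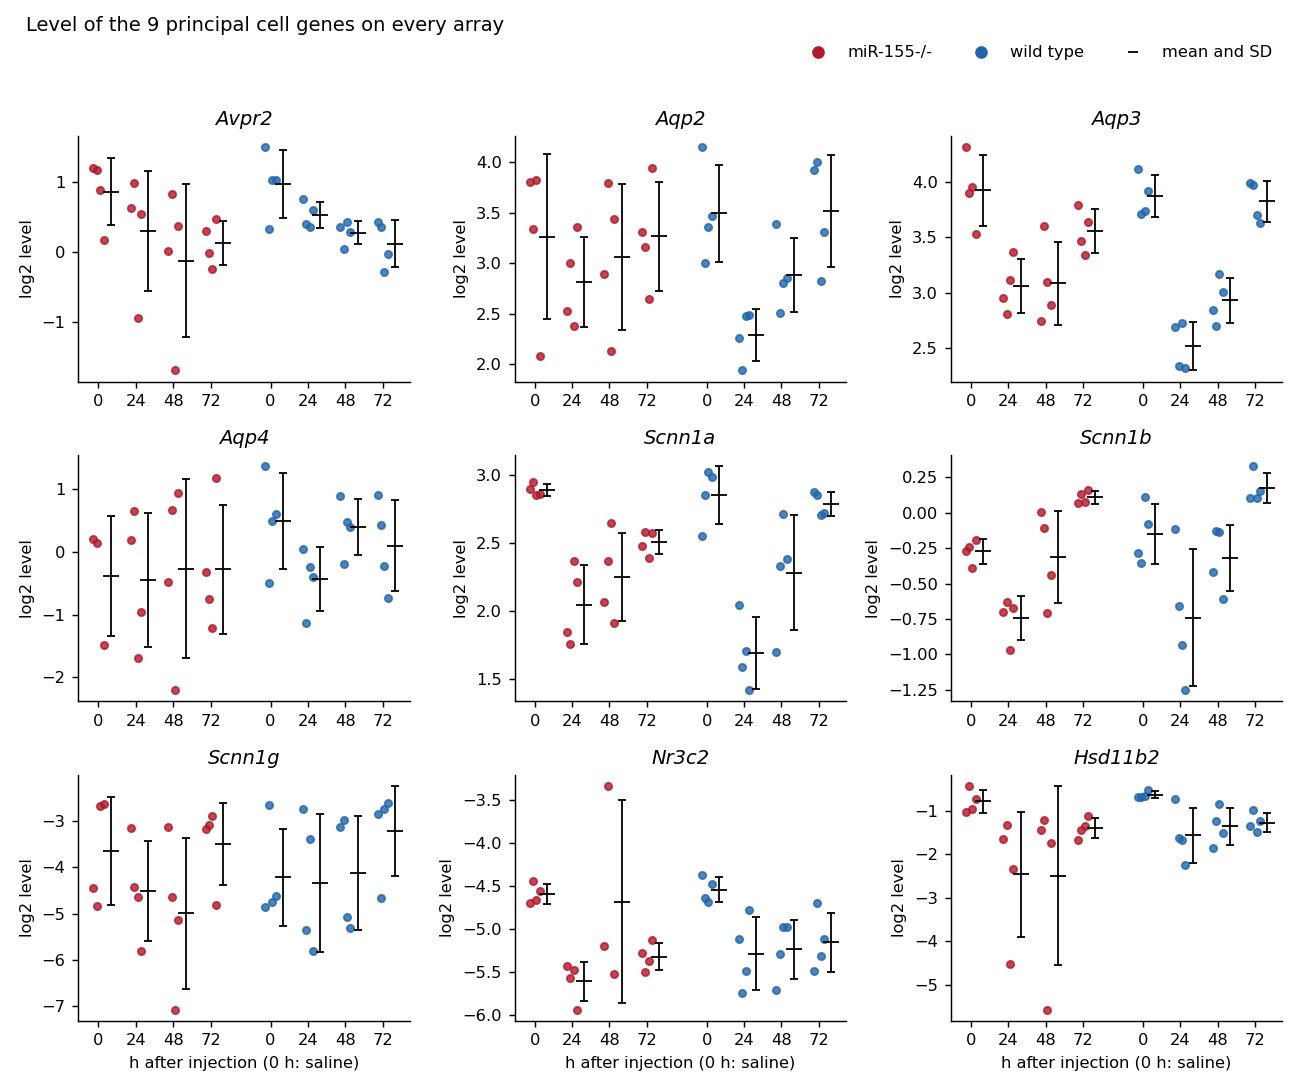
Log2 level of each of the 9 genes on every array (dots, 4 per group), for miR-155-/- and then wild type kidneys at 0 h (saline), 24, 48 and 72 h, with the mean and SD of each group in black. Aqp3 and Scnn1a are lowest at 24 h in wild type kidneys and back near saline levels at 72 h, and single miR-155-/- arrays at 24 and 48 h lie far below the others for Hsd11b2.

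The first question was how the 9 genes changed after cisplatin in each genotype. At 24 h, 5 of 9 were called lower in miR-155-/- kidneys (Aqp3, Scnn1a, Scnn1b, Nr3c2 and Hsd11b2), where 22.5% of all genes were called lower. In wild type kidneys 4 of 9 were called lower at 24 h (Aqp2, Aqp3, Scnn1a and Scnn1b), against 17.6% of all genes. At 48 h, 4 of 9 were called lower in miR-155-/- kidneys (Aqp3, Scnn1a, Avpr2 and Hsd11b2), with 21.1% of all genes, and 2 of 9 in wild type kidneys (Aqp3 and Scnn1a), with 11.6% of all genes. At 72 h limma called 0 of 9 in either genotype, where 17.5% of all genes were called lower in miR-155-/- and 12.8% in wild type kidneys. At an unadjusted p under 0.05 there were 4 members at 72 h in miR-155-/- and 1 in wild type kidneys. No member was called higher than saline at any time.

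The median difference of the 9 genes from saline was -0.84 at 24 h, -0.64 at 48 h and -0.36 at 72 h in miR-155-/- kidneys, where the medians of all genes were -0.01, -0.05 and -0.02. In wild type kidneys the members' medians were -0.92, -0.61 and -0.06, and those of all genes were 0.07, 0.00 and 0.03. The 3 comparisons of a genotype share its saline animals. The intervals of several members were wide, as the plot of differences shows. In wild type kidneys at 24 h, the uncalled differences of Scnn1g and Nr3c2 stood at 0.13 and 0.08 with normexp background correction. The median of all genes was then 0.26, so both still lay below the typical gene. For Aqp4 in miR-155-/- kidneys at 24 h the sign of the uncalled difference depended on the setting, with 0.34 without the arrays that stood apart.

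**Figure D2:**
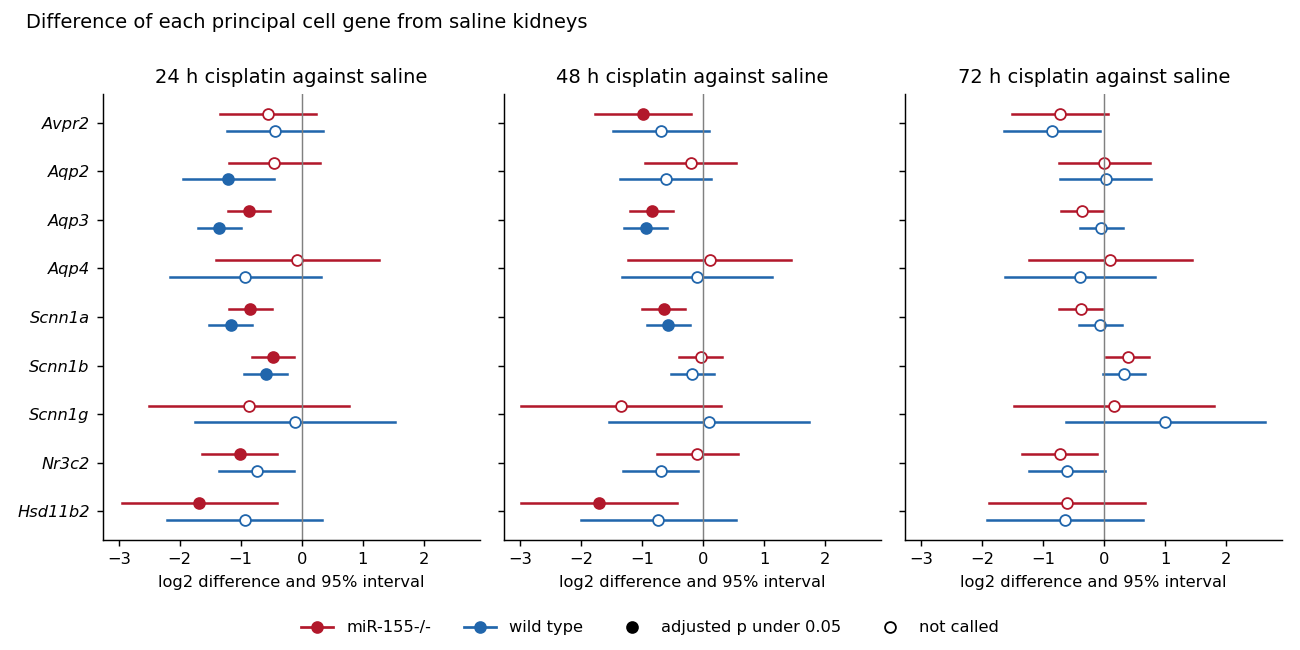
Log2 difference of each gene from saline kidneys of the same genotype at 24, 48 and 72 h, with its 95% interval from limma, miR-155-/- above wild type. Filled dots are called genes. Filled dots are all left of 0, number 5 and 4 at 24 h, 4 and 2 at 48 h, and 0 at 72 h, in miR-155-/- and wild type kidneys in that order.

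Aqp3, the basolateral water channel, fell at 24 and 48 h in both genotypes. Levels in miR-155-/- kidneys were 4.32, 3.9, 3.95 and 3.53 at 0 h, 2.95, 2.81, 3.12 and 3.37 at 24 h, 2.75, 3.60, 3.1 and 2.89 at 48 h, and 3.79, 3.47, 3.34 and 3.64 at 72 h. Levels in wild type kidneys were 4.12, 3.71, 3.74 and 3.91 at 0 h, 2.69, 2.34, 2.73 and 2.32 at 24 h, 2.84, 2.70, 3.17 and 3.01 at 48 h, and 3.99, 3.97, 3.70 and 3.63 at 72 h. All 4 animals at 24 h lay below all 4 saline animals in each genotype, and at 72 h the groups overlapped. The difference at 24 h was -0.86 ± 0.17 (SE, adjusted p = 0.000156), or 1.82-fold lower, in miR-155-/- kidneys. It was -1.35 ± 0.17 (adjusted p = 4.36e-07), or 2.55-fold lower, in wild type kidneys. At 48 h it was -0.84 ± 0.17 in miR-155-/- kidneys (adjusted p = 0.000271) and -0.94 ± 0.17 in wild type kidneys (adjusted p = 0.000145). The 72 h values were -0.36 ± 0.17 in miR-155-/- kidneys (adjusted p = 0.0993) and -0.05 ± 0.17 in wild type kidneys (adjusted p = 0.875).

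Aqp2, the apical water channel that vasopressin controls, was called lower in wild type kidneys at 24 h. It lay there at 4.16, 3.0, 3.36 and 3.46 at 0 h, 2.26, 1.94, 2.48 and 2.49 at 24 h, 3.39, 2.5, 2.80 and 2.85 at 48 h, and 3.92, 4.01, 2.83 and 3.31 at 72 h. The 24 h and 0 h animals did not overlap, and the difference was -1.21 ± 0.36 (adjusted p = 0.00986), or 2.31-fold lower. The miR-155-/- animals lay at 3.81, 3.34, 3.83 and 2.08 at 0 h, 2.52, 3.01, 2.38 and 3.36 at 24 h, 2.90, 3.80, 2.13 and 3.44 at 48 h, and 3.31, 3.16, 2.64 and 3.95 at 72 h. The saline animal at 2.08 lay below every 24 h animal. The difference at 24 h was -0.45 ± 0.36 (adjusted p = 0.331), and -0.84 (adjusted p = 0.0498) without that saline animal. The interaction, which sets the miR-155-/- response against the wild type response, was 0.76 ± 0.52 for Aqp2 at 24 h, with a 95% interval of -0.30 to 1.82, and was not called. At 72 h the differences from saline were 0.00 ± 0.36 in miR-155-/- and 0.02 ± 0.36 in wild type kidneys.

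Aqp4, the other basolateral water channel, varied widely among animals of a group. Its lowest and highest levels were -2.20 and 0.94 at 48 h in miR-155-/- kidneys and -0.20 and 0.89 at 48 h in wild type kidneys, and 1 saline miR-155-/- array had no value. No difference from saline was called, and the largest in size was -0.92 ± 0.60 in wild type kidneys at 24 h (95% interval -2.16 to 0.31). Its second probe gave -0.64 in that comparison.

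Avpr2, the receptor that starts the vasopressin response, was called lower in miR-155-/- kidneys at 48 h alone. It lay there at 0.02, 0.83, -1.69 and 0.37 at 48 h against 1.21, 1.18, 0.89 and 0.18 in saline miR-155-/- kidneys. The lowest value was that of the array that stood apart. The difference was -0.98 ± 0.38 (adjusted p = 0.0393) with it and -0.46 (adjusted p = 0.304) without it, and the second probe gave -1.04 with it. Leaving out miR-155-/- saline replicate 1, 2 or 3 also ended the call. The receptor averaged 0.12 ± 0.33 at 72 h and 0.97 ± 0.49 with saline in wild type kidneys (SD, n = 4), a difference of -0.85 ± 0.38 (adjusted p = 0.107). The 72 h difference in miR-155-/- kidneys was -0.73 ± 0.38 (adjusted p = 0.147). With both arrays that stood apart left out, the pooled spread was smaller and Avpr2 was called lower at 72 h in miR-155-/- (adjusted p = 0.0108) and wild type kidneys (adjusted p = 0.00457), at unchanged differences. At 72 h Avpr2 and Aqp2 thus stood at unlike differences from saline in wild type kidneys, -0.85 and 0.02, and the difference between the genes was not tested.

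Scnn1a, the alpha subunit of ENaC, fell at 24 and 48 h in both genotypes. Among miR-155-/- animals the levels were 2.89, 2.95, 2.85 and 2.86 at 0 h, 1.85, 1.76, 2.37 and 2.21 at 24 h, 2.07, 2.37, 2.65 and 1.91 at 48 h, and 2.48, 2.58, 2.39 and 2.57 at 72 h. The wild type animals lay at 2.55, 2.85, 3.02 and 2.98 at 0 h, 2.04, 1.59, 1.70 and 1.42 at 24 h, 1.70, 2.33, 2.71 and 2.38 at 48 h, and 2.87, 2.85, 2.70 and 2.72 at 72 h. In miR-155-/- kidneys no treated animal at any of the 3 times reached the lowest saline animal, whereas wild type animals at 48 and 72 h overlapped with saline. At 24 h the difference was -0.84 ± 0.17 (adjusted p = 0.000217), or 1.80-fold lower, in miR-155-/- kidneys and -1.16 ± 0.17 (adjusted p = 4.99e-06), or 2.24-fold lower, in wild type kidneys. At 48 h it was -0.64 ± 0.17 in miR-155-/- kidneys (adjusted p = 0.00368) and -0.57 ± 0.17 in wild type kidneys (adjusted p = 0.0157). The wild type call at 48 h was lost without wild type replicate 1 at 48 h (-0.37, adjusted p = 0.108) and without wild type replicate 3 at 0 h. At 72 h it was -0.38 ± 0.17 in miR-155-/- kidneys (adjusted p = 0.0856) and -0.06 ± 0.17 in wild type kidneys (adjusted p = 0.831).

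Scnn1b, the beta subunit, was called lower at 24 h and was not called at 48 or 72 h. Levels in miR-155-/- kidneys were -0.27, -0.24, -0.39 and -0.19 at 0 h, -0.70, -0.63, -0.97 and -0.67 at 24 h, 0.00, -0.11, -0.71 and -0.44 at 48 h, and 0.07, 0.13, 0.08 and 0.16 at 72 h. Among wild type animals the levels were -0.28, -0.35, 0.11 and -0.08 at 0 h, -0.11, -0.66, -0.94 and -1.25 at 24 h, -0.42, -0.13, -0.13 and -0.61 at 48 h, and 0.10, 0.33, 0.11 and 0.16 at 72 h. The 4 miR-155-/- animals at 72 h all lay above the 4 saline ones. The 24 h difference was -0.47 ± 0.17 in miR-155-/- kidneys (adjusted p = 0.0237) and -0.59 ± 0.17 in wild type kidneys (adjusted p = 0.00716). The wild type call was lost without wild type replicate 4 at 24 h (-0.42, adjusted p = 0.0538), and the miR-155-/- call without miR-155-/- replicate 4 at 0 h or replicate 3 at 24 h (differences between -0.51 and -0.40 over arrays left out, highest adjusted p = 0.0797). The miR-155-/- call also ended with both arrays that stood apart left out (-0.40, adjusted p = 0.0520), with the array median subtracted (-0.37, adjusted p = 0.106), with the slide as a fixed block (-0.44, adjusted p = 0.0690) and with array weights (-0.40, adjusted p = 0.0815). At 72 h the differences were 0.38 ± 0.17 in miR-155-/- kidneys (adjusted p = 0.0843) and 0.32 ± 0.17 in wild type kidneys (adjusted p = 0.176).

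Scnn1g, the gamma subunit, had a dim probe (intensities of 14.1 to 374, median 106) whose level followed the slide. On slides 3, 7 and 8 its 12 values lay between -3.39 and -2.60, on slides 1, 2, 5 and 6 its 16 values lay between -7.07 and -4.43, and slide 4 held values between -4.65 and -2.63. Slide accounted for 85.4% of its variance within groups, a share that 6.30% of genes reached. In the fit without slides no difference from saline was called, and the SE was 0.80 in each. With the slide as a fixed block the difference was -1.06 ± 0.39 at 24 h (adjusted p = 0.0267) and -1.05 ± 0.41 at 48 h (adjusted p = 0.0337) in miR-155-/- kidneys, and -0.80 ± 0.41 at 24 h in wild type kidneys (adjusted p = 0.121). In miR-155-/- kidneys animals on the same slide differed by -2.01 and -1.36 at 24 h, on 2 slides. At 48 h they differed by -2.24, on 1 slide. The values of -2.01 and -2.24 rest on the arrays that stood apart. With the slide as a random block none was called. The other ENaC subunit genes did not follow the slide in this way, with shares of 29.1% for Scnn1a and 9.75% for Scnn1b.

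**Figure D3:**
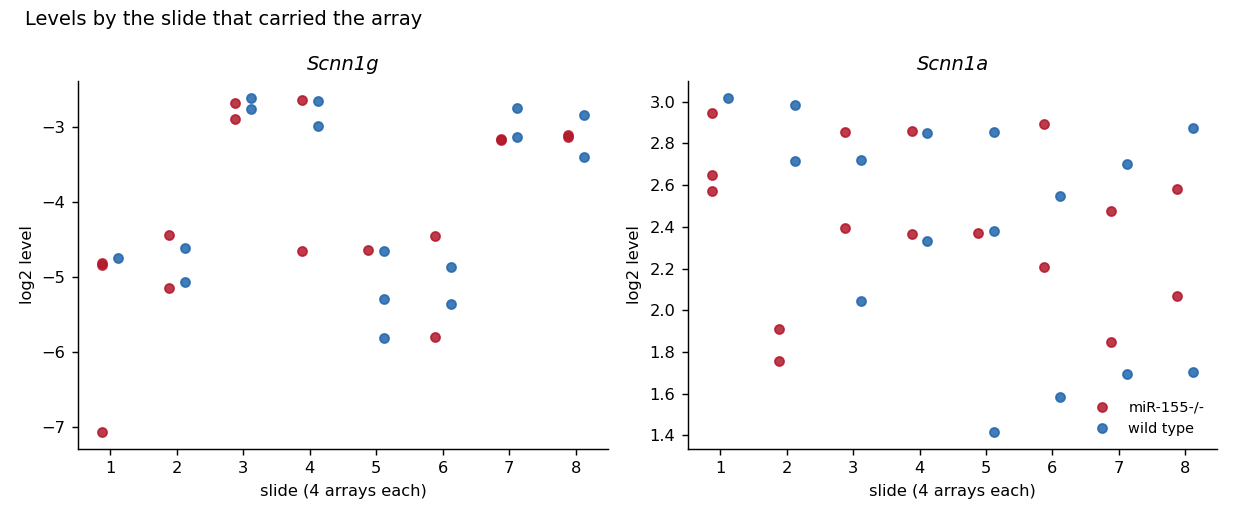
Log2 level of Scnn1g and of Scnn1a on each array against the number of the slide that carried it, with miR-155-/- and wild type arrays in 2 colours. Scnn1g lies at -3.39 or higher on slides 3, 7 and 8 and at -4.43 or lower on slides 1, 2, 5 and 6 in both genotypes, while the ranges of Scnn1a on the slides overlap.

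Nr3c2, the receptor for aldosterone, had a dim probe (intensities of 28.1 to 221) and lay below saline at 24 h. The miR-155-/- animals lay at -5.44, -5.57, -5.48 and -5.94 at 24 h against -4.70, -4.44, -4.66 and -4.56 with saline, with no overlap. That difference was -1.02 ± 0.30 (adjusted p = 0.00657), or 2.03-fold lower. With normexp background correction it was -0.60 (adjusted p = 0.450), so the call depended on the background step. Normexp added an offset of 50 to each intensity, which by construction draws log differences of dim probes toward 0. At 24 h wild type kidneys held -5.12, -5.75, -5.50 and -4.78 against -4.37, -4.64, -4.69 and -4.48 with saline. These groups did not overlap either, and the difference of -0.74 ± 0.30 missed the threshold (adjusted p = 0.0530). It was called with the slide as a fixed block (-0.91, adjusted p = 0.0145) or a random block (-0.81, adjusted p = 0.0153). It was also called with the compared groups alone (adjusted p = 0.0189) and with both arrays that stood apart left out (adjusted p = 0.0436). With normexp the wild type difference at 24 h was 0.08, where the median of all genes was 0.26. At 48 h, miR-155-/- kidneys gave 3 values, -5.19, -3.33 and -5.52, and a difference of -0.09 ± 0.33. Without the animal at -3.33 the difference was -0.77 (adjusted p = 0.0143). The remaining differences, at 72 h in miR-155-/- kidneys and at 48 and 72 h in wild type kidneys, lay between -0.73 and -0.61. In all of them the treated animals lay below all saline animals, without a call in the fit without slides. With the slide as a fixed block they were called, with adjusted p of 0.0373, 0.0145 and 0.0454 in that order. With normexp these 3 differences lay between -0.45 and 0.01, so their size depended on the background step too. The value of 0.01 was that at 72 h in miR-155-/- kidneys, where the median of all genes was 0.18.

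Hsd11b2, whose enzyme shields the receptor from glucocorticoids, lay below saline in every treated group without overlap. Among miR-155-/- animals the levels were -1.02, -0.43, -0.95 and -0.72 at 0 h, -1.65, -1.32, -4.53 and -2.34 at 24 h, -1.45, -1.21, -5.57 and -1.73 at 48 h, and -1.67, -1.44, -1.35 and -1.11 at 72 h. Levels in wild type kidneys were -0.68, -0.67, -0.65 and -0.51 at 0 h, -0.72, -1.62, -1.67 and -2.24 at 24 h, -1.86, -1.22, -0.85 and -1.5 at 48 h, and -1.36, -0.98, -1.49 and -1.24 at 72 h. The values of -4.53 and -5.57 belong to the arrays that stood apart. The difference was -1.68 ± 0.62 at 24 h (adjusted p = 0.0267) and -1.71 ± 0.62 at 48 h (adjusted p = 0.0272) in miR-155-/- kidneys. Without the array that stood apart in its own group, it was -0.99 (adjusted p = 0.175) at 24 h and -0.68 (adjusted p = 0.250) at 48 h. The call at 48 h also ended with normexp (-0.59, adjusted p = 0.221) and with the compared groups alone (adjusted p = 0.165). Leaving out miR-155-/- saline replicate 2 also ended both calls, and leaving out miR-155-/- saline replicate 4 ended that at 48 h.

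The same 2 arrays set the spread for Hsd11b2 in all comparisons. With both left out the SE was 0.24 to 0.26, against 0.62 with them, and Hsd11b2 was called lower in all 6. The differences were then -0.99, -0.68 and -0.61 at 24, 48 and 72 h in miR-155-/- kidneys, with adjusted p of 0.00261, 0.0417 and 0.0414. In wild type kidneys they were -0.94, -0.73 and -0.64, with adjusted p of 0.00224, 0.0198 and 0.0400. At 72 h this choice raised the members called to 5 in miR-155-/- kidneys, with Scnn1a, Avpr2, Nr3c2 and Hsd11b2 lower and Scnn1b higher, and to 2 in wild type kidneys, Avpr2 and Hsd11b2, both lower. With both left out, 46.9% of all genes were called in either direction at 72 h in miR-155-/- and 37.9% in wild type kidneys. With them the shares were 35.2% and 25.4%. Leaving out both arrays was a choice added after the data were seen.

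Counting groups of 4 that do not overlap needs no shared spread. At 24 h, 5 of 9 members lay wholly below saline in miR-155-/- kidneys (18.2% of all genes) and 5 of 9 in wild type kidneys (21%). At 48 h these were 2 of 9 in miR-155-/- kidneys (18.2%) and 3 of 9 in wild type kidneys (17.5%). At 72 h they were 3 of 9 in miR-155-/- kidneys (20.3%) and 2 of 9 in wild type kidneys (20.8%), with Scnn1b the 1 member wholly above saline, in miR-155-/- kidneys (19.7% of all genes). The 48 and 72 h shares of the members were thus near those of all genes.

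Animals that shared a slide gave differences of the same sign for Aqp3 and Scnn1a at 24 and 48 h. Slides held few such pairs, 2 for miR-155-/- at 24 h, 1 for miR-155-/- at 48 h, 1 for wild type at 24 h and 2 for wild type at 48 h. For Aqp3 they gave -0.94 and -0.41 at 24 h and -0.80 at 48 h in miR-155-/- kidneys, and -1.78 at 24 h and -1.01 and -0.74 at 48 h in wild type kidneys. For Scnn1a they gave -0.68 and -0.49 at 24 h and -0.30 at 48 h in miR-155-/- kidneys, and -0.96 at 24 h and -0.52 and -0.27 at 48 h in wild type kidneys. Aqp2 differed by -2.22 on the 1 slide of wild type animals at 24 h, and by -0.45 and 0.30 on the 2 slides of miR-155-/- animals at 24 h. In miR-155-/- kidneys the 48 h pair and 1 of the 2 pairs at 24 h rest on the arrays that stood apart. That 24 h pair gave -0.41 for Aqp3, -0.49 for Scnn1a and 0.30 for Aqp2.

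Setting 72 h against 24 h asked which genes came back up. It used the same 24 and 72 h animals as the comparisons with saline, so the results are not independent of those. In miR-155-/- kidneys 3 of 9 were called higher at 72 h than at 24 h, against 13.6% of all genes, and in wild type kidneys 4 of 9, against 11.9%. In miR-155-/- kidneys Scnn1b was 0.85 ± 0.17 higher (adjusted p = 0.000372), Aqp3 0.50 ± 0.17 (adjusted p = 0.0255) and Scnn1a 0.46 ± 0.17 (adjusted p = 0.0402). In wild type kidneys Aqp3 was 1.30 ± 0.17 higher (adjusted p = 1.40e-06), Scnn1a 1.10 ± 0.17 (adjusted p = 1.86e-05), Scnn1b 0.91 ± 0.17 (adjusted p = 0.000177) and Aqp2 1.23 ± 0.36 (adjusted p = 0.0123). The Aqp3 and Scnn1a calls in miR-155-/- kidneys each ended when any of 4 or more single arrays was left out, with adjusted p up to 0.0864 and 0.132. Avpr2 was not higher at 72 h than at 24 h, at -0.17 ± 0.38 in miR-155-/- and -0.41 ± 0.38 in wild type kidneys. Whether the genotypes differ in this step was not tested.

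The next question was whether the genotypes differed. In miR-155-/- against wild type kidneys limma called 0 of 9 genes at each of the 4 times, where 0.114% of all genes were called in either direction at 0 h, 0.08% at 24 h, 0.101% at 48 h and 0.72% at 72 h. At an unadjusted p under 0.05 there were 2 members at 24 h and 0 at the other times. Aqp3 at 24 h lay at 2.95, 2.81, 3.12 and 3.37 in miR-155-/- kidneys and at 2.69, 2.34, 2.73 and 2.32 in wild type kidneys, which did not overlap. It was 0.54 higher, with a 95% interval of 0.19 to 0.89, but did not pass the correction over all genes, and 1.5% of all genes lay wholly higher in miR-155-/- kidneys at that time. Scnn1a at 24 h was 0.36 higher (95% interval 0.01 to 0.71) with overlapping groups. At 72 h Scnn1a was the 1 member that lay wholly lower in miR-155-/- kidneys (2.48, 2.58, 2.39 and 2.57) than in wild type kidneys (2.87, 2.85, 2.70 and 2.72), as 6.8% of all genes did. That difference was -0.28, with a 95% interval of -0.63 to 0.07.

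At 0 h the intervals between the genotypes were -0.31 to 0.39 for Scnn1a, -0.30 to 0.40 for Aqp3, -0.47 to 0.23 for Scnn1b and -0.98 to 0.52 for Aqp2. For Hsd11b2 and Scnn1g they ran from -1.43 to 1.12 and from -1.07 to 2.21, so that a 2-fold difference in either direction lay within the interval. The interaction was called for 0 of 9 at 24, 48 and 72 h by limma, against 0%, 0% and 0.211% of all genes, with 0 members at an unadjusted p under 0.05 at each time. At 24 h the interaction for Aqp3 was 0.49, with a 95% interval of -0.0043 to 0.98.

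Animals of 1 group differed in ways that joined some of the 9 genes and not others. Each array's deviation from its group mean was compared over 36 pairs of genes, with p from 100000 permutations and Benjamini-Hochberg adjustment over the pairs. Pearson's r and Spearman's rho both passed for 5 pairs, all positive. Avpr2 and Aqp4 gave r = 0.88 and rho = 0.89 over 31 arrays (adjusted permutation p = 0.00018 for both). Aqp2 gave r = 0.77 and rho = 0.78 with Avpr2 over 32 arrays (adjusted permutation p = 0.00018 for both) and r = 0.80 and rho = 0.80 with Aqp4 over 31 arrays (adjusted permutation p = 0.00036 for r and 0.00045 for rho). Without the 2 arrays farthest from the median, r was 0.87, 0.71 and 0.74 for these 3 pairs. Among the slides of the first and second scan days, r was 0.73 and 0.92 for Avpr2 with Aqp4, 0.73 and 0.77 for Aqp2 with Avpr2, and 0.62 and 0.91 for Aqp2 with Aqp4.

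Scnn1b and Hsd11b2 formed the fourth such pair (r = 0.65, rho = 0.74, adjusted permutation p = 0.00045 and 0.00024), with r of 0.68 without the 2 farthest arrays and 0.75 and 0.66 on the 2 scan days. Aqp2 and Aqp3 were the fifth (r = 0.60, rho = 0.59, adjusted permutation p = 0.0274 and 0.0187), with r of 0.59 without the 2 farthest arrays and 0.72 and 0.39 on the 2 scan days. Aqp2 and Scnn1a, both lower at 24 h in wild type kidneys, gave r = -0.23 and rho = -0.08 within groups. Other genes of the fixed lists whose deviations followed Aqp2 over 32 arrays were Elf5, a transcription factor of the principal cell, with r = 0.89, and Fxyd4, a regulator of the sodium pump in the collecting duct, with r = 0.88. The urothelial genes Upk3b and Upk3a gave r = 0.84 and r = 0.76, and Slc14a1, a urea transporter, gave r = 0.81. Elf5, Fxyd4, Upk3b and Slc14a1 ranked highest of 157 genes. The other urothelial markers Upk2, Upk1a, Upk1b and Krt5 gave 0.71, 0.69, 0.54 and 0.05. Above Upk3a also lay Ptger1 (0.81) of the cAMP list and Slc6a12 (0.80) of the tonicity list, and Slc12a1 of the thick ascending limb gave 0.72. All are given as a description. The 6 urothelial markers summed to 0.45 to 2.45 in saline miR-155-/- kidneys and to 0.83 to 7.46 in saline wild type kidneys, as linear multiples of the 75th percentile, and their part in the Aqp2 values was not tested.

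**Figure D4:**
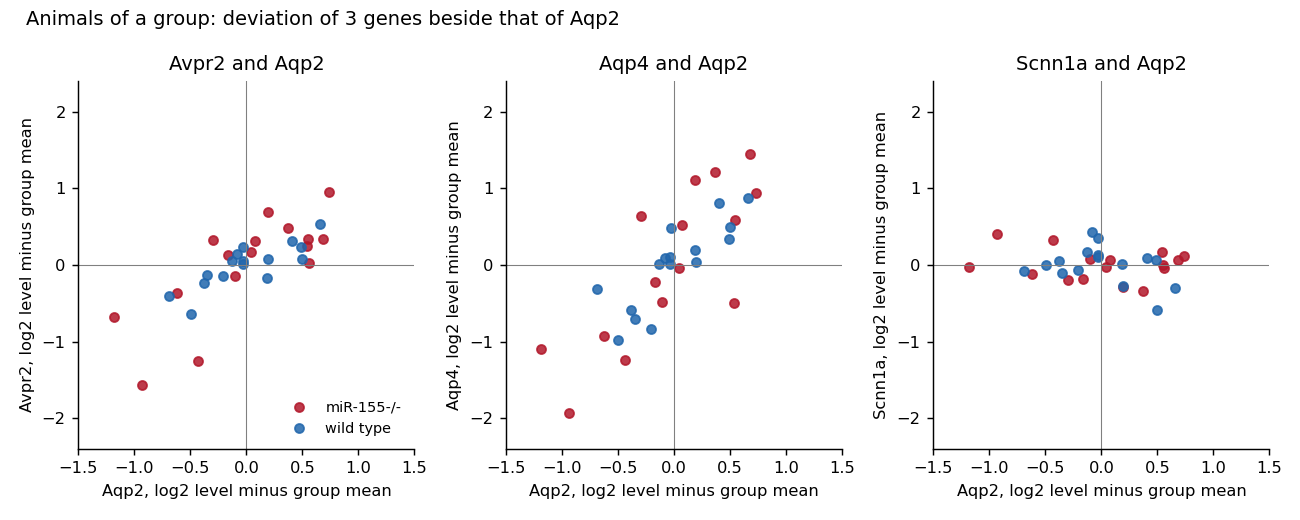
Deviation of Avpr2, Aqp4 and Scnn1a from the mean of the animal's group (log2) against that of Aqp2, 1 dot per array, miR-155-/- and wild type in 2 colours. Avpr2 (r = 0.77) and Aqp4 (r = 0.80) rise with Aqp2 among animals of a group, and Scnn1a does not (r = -0.23).

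Over the 8 group means, and among 14451 named genes well above background on all arrays, the genes most like Aqp2 by Pearson's r were Pan2 (0.98), Elac1 (0.96), 1700029I15Rik (0.95), Cox8a (0.95) and Rnaset2a (0.95). Among the members, Scnn1a (0.94), Aqp3 (0.93) and Scnn1b (0.85) were near it, and Avpr2 (0.095) was not. Among those most like Scnn1g were Klhdc7a (0.98), Fbxo39 (0.98), Kcnn3 (0.98) and Wdr63 (0.98), and slide differences enter its means. With 8 points these values describe a ranking only.

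Of the regulators of ENaC and targets of its steroid receptors, 18 of 19 were tested. In miR-155-/- kidneys 3 were called higher and 6 lower at 24 h, 4 and 5 at 48 h, and 6 and 4 at 72 h. The counts in wild type kidneys were 4 higher and 2 lower at 24 h, 8 and 3 at 48 h, and 7 and 3 at 72 h. The median difference of the list was -0.11, -0.02 and 0.18 in miR-155-/- and 0.03, 0.26 and 0.36 in wild type kidneys, against -0.01, -0.05 and -0.02 and 0.07, 0.00 and 0.03 for all genes. Of all genes, 26.6%, 22.7% and 17.7% were called higher at 24, 48 and 72 h in miR-155-/- kidneys, and 21%, 12.2% and 12.5% in wild type kidneys. Called lower were 22.5%, 21.1% and 17.5% of all genes in miR-155-/- kidneys, and 17.6%, 11.6% and 12.8% in wild type kidneys.

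The highest count, 8 of 18 at 48 h in wild type kidneys, stands beside 12.2% of all genes, while 3 and 4 of 18 at 24 and 48 h in miR-155-/- kidneys are near or below the share of all genes. Per1, a clock gene, rose in all 6 comparisons, by 1.28 to 1.65 in miR-155-/- and 1.63 to 1.79 in wild type kidneys. Zbtb16, a transcription factor gene, rose by 0.82 to 1.47 in miR-155-/- and 2.36 to 2.72 in wild type kidneys. Fkbp5, which encodes a steroid receptor co-chaperone, was 1.15 ± 0.20 higher in miR-155-/- and 1.34 ± 0.20 higher in wild type kidneys at 72 h. Sgk1, the kinase that keeps ENaC at the membrane, was 0.74 ± 0.24 higher in miR-155-/- (adjusted p = 0.0159) and 1.45 ± 0.24 higher in wild type kidneys (adjusted p = 3.43e-05) at 72 h. Its 4 animals at 72 h lay at 2.70, 3.15, 3.06 and 3.36 in miR-155-/- kidneys and 3.53, 3.72, 3.57 and 3.68 in wild type kidneys, and the genotype difference of -0.56 ± 0.24 was not called (adjusted p = 0.354). At 24 h Sgk1 stood at 0.05 ± 0.24 in miR-155-/- and 0.08 ± 0.24 in wild type kidneys, when Scnn1a and Scnn1b were called lower.

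Genes that act on the channel protein or its kinases moved both ways. Prss8, a protease that activates ENaC, fell by 1.01 at 24 h, 1.02 at 48 h and 1.0 at 72 h in miR-155-/- kidneys, and by 0.66 at 48 h and 0.60 at 72 h in wild type kidneys. Spint1 and Serpine2 encode protease inhibitors. Spint1 was 1.33 ± 0.17 higher in miR-155-/- and 1.23 ± 0.17 higher in wild type kidneys at 24 h, and Serpine2 was 1.82 ± 0.26 and 1.51 ± 0.26 higher at 72 h. Nedd4l, the ubiquitin ligase that removes ENaC, was called lower in miR-155-/- kidneys at 24 h, at -0.86 ± 0.22 (adjusted p = 0.00231), and stood at -0.44 ± 0.22 in wild type kidneys (adjusted p = 0.127). Wnk1, a kinase of distal salt transport, fell in all 6 comparisons, by 1.28 to 1.61 in miR-155-/- and 0.96 to 1.24 in wild type kidneys. Stk39, which acts under it, fell by 1.47 in miR-155-/- and by 1.56 in wild type kidneys at 24 h.

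**Figure D5:**
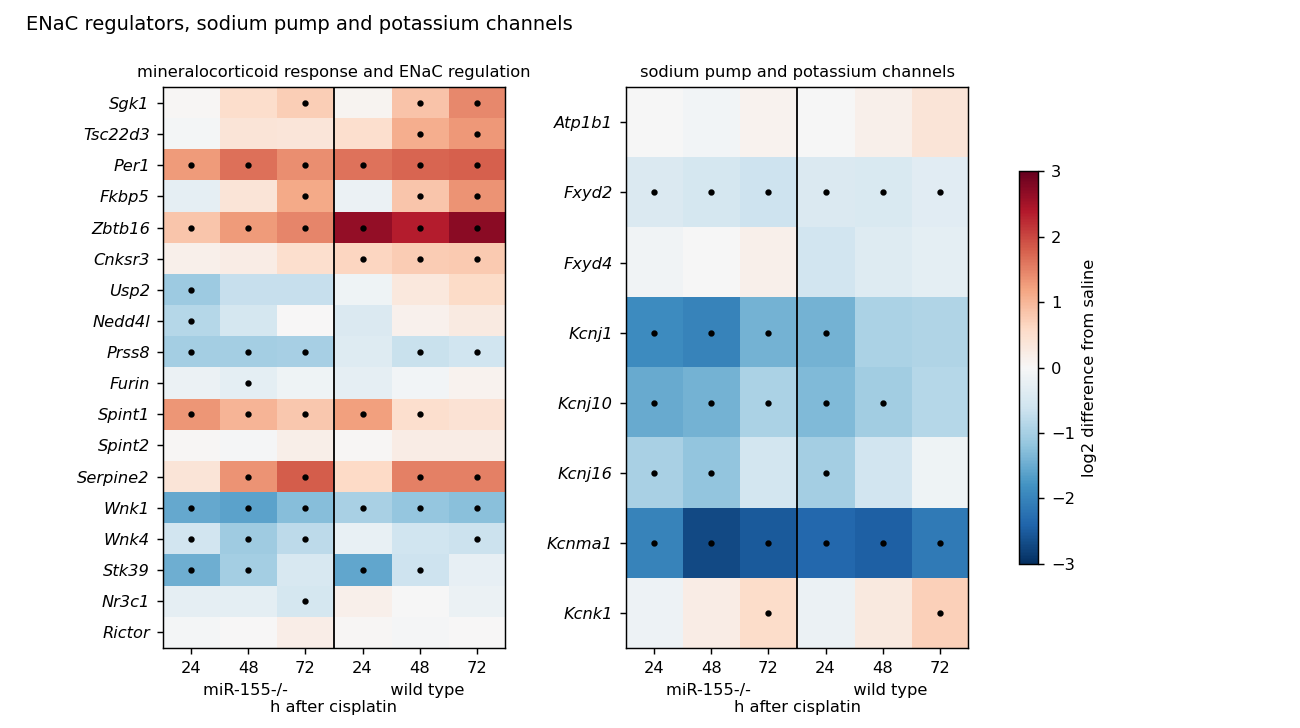
Log2 difference from saline (colour) of 18 genes of mineralocorticoid response and ENaC regulation (left) and 8 of the 9 tested sodium pump and potassium channel genes (right, 1 not shown) at 24, 48 and 72 h, miR-155-/- and then wild type, with a black dot for each called gene. Per1 and Zbtb16 are higher and Wnk1, Kcnma1 and Fxyd2 lower in all 6 comparisons.

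Of the sodium pump and potassium channel genes, 9 of 10 were tested, and 6 were called lower at 24 h in each genotype. At 48 h these were 6 in miR-155-/- and 3 in wild type kidneys, and at 72 h 4 and 2, with 1 gene (Kcnk1) called higher in each. Of all genes, 22.5%, 21.1% and 17.5% were called lower at the 3 times in miR-155-/- kidneys, and 17.6%, 11.6% and 12.8% in wild type kidneys. Kcnma1, a large-conductance potassium channel, fell by 2.01 to 2.71 in miR-155-/- and 2.12 to 2.45 in wild type kidneys. Kcnj1, the apical potassium channel ROMK, fell by 1.90 in miR-155-/- (adjusted p = 0.003) and by 1.41 in wild type kidneys (adjusted p = 0.0289) at 24 h. Fxyd4, the pump regulator of the collecting duct, was called in none of the 6 (-0.58 to 0.14).

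All 24 genes of cAMP signalling and aquaporin-2 trafficking were tested. At 24 h, 5 were called higher and 7 lower in miR-155-/- kidneys and 3 higher and 6 lower in wild type kidneys, with medians of -0.10 and -0.04. These counts read against 26.6% higher and 22.5% lower among all genes in miR-155-/- kidneys and 21% and 17.6% in wild type kidneys. Creb1, the cAMP response factor, was 1.44 ± 0.24 higher in miR-155-/- and 1.56 ± 0.24 higher in wild type kidneys, and Prkar1a, a regulatory subunit of protein kinase A, 1.22 ± 0.18 and 1.04 ± 0.18 higher. Rab11a, of the recycling endosome, rose in all 6 comparisons, by 0.43 to 0.75 in miR-155-/- and 0.39 to 0.74 in wild type kidneys. Myo5b, the motor that works with it, fell by 1.33 in miR-155-/- and by 1.38 in wild type kidneys at 24 h. Adcy6, the cyclase of the V2 response, was called in none (-0.37 to -0.06).

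Of the tonicity and urea genes 8 of 9 were tested. At 24 h, 3 were called lower in miR-155-/- and 2 in wild type kidneys, where 22.5% and 17.6% of all genes were called lower. Among these list genes was Slc5a3, an inositol transporter, at -1.66 ± 0.32 in miR-155-/- and -1.10 ± 0.32 in wild type kidneys. Nfat5, the tonicity factor, was 0.53 ± 0.19 higher at 48 h and 0.55 ± 0.19 higher at 72 h in miR-155-/- kidneys, and was not called in wild type kidneys, where it stood at 0.17 at 24 h and 0.04 at 72 h. The urea transporter gene Slc14a2 was not called (-0.53 to 1.45).

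Of the other aquaporin genes 6 of 7 were tested. Aqp1, the channel of the proximal tubule and thin descending limb, fell by 0.70 to 0.76 at the 3 times in miR-155-/- kidneys and fell by 0.48 at 24 h in wild type kidneys. Aqp8 was called higher in all 6 comparisons, by 1.97 to 2.72 in miR-155-/- and 1.46 to 3.31 in wild type kidneys. At 72 h Aqp7 (-0.55 ± 0.12, adjusted p = 0.0176) and Aqp11 (-0.56 ± 0.13, adjusted p = 0.0323) were lower in miR-155-/- than in wild type kidneys.

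Identity genes of the collecting duct were called in both directions. At 24 h, 5 of 20 were called higher and 5 lower in miR-155-/- kidneys and 2 higher and 4 lower in wild type kidneys, with medians of -0.06 and -0.30. Of all genes, 26.6% were called higher and 22.5% lower in miR-155-/- kidneys and 21% and 17.6% in wild type kidneys, so these counts are near or below the shares of all genes. Calb1, a calcium-binding protein of the connecting tubule, fell by 1.53 to 2.93, and Krt8, an epithelial keratin, rose by 1.01 to 1.92 over the 6 comparisons. The transcription factor Elf5 was called in none (-0.93 to 0.49), nor was Gata3 (-0.42 to 0.06).

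Markers of other tubule segments were lower at 24 h beside the 9 genes. The 9 genes are themselves markers of the principal cell, and 5 of them in miR-155-/- and 4 in wild type kidneys were called lower then. Of the 4 other principal cell genes, Hoxb7, a transcription factor gene, was called higher at 24 h in both genotypes, at 0.40 ± 0.11 in miR-155-/- (adjusted p = 0.00404) and 0.36 ± 0.11 in wild type kidneys (adjusted p = 0.0126), and none was called lower. Their median difference at 24 h was -0.01 in miR-155-/- and -0.50 in wild type kidneys, where the medians of all genes were -0.01 and 0.07. At 24 h all 8 proximal tubule markers were called lower in both genotypes, as were 6 of 7 in miR-155-/- and 5 of 7 in wild type kidneys for the distal convoluted and connecting tubule, 4 of 6 in both for the thick ascending limb, and 5 of 10 and 2 of 10 for the intercalated cell. No marker of these 4 lists was called higher at 24 h, when 22.5% of all genes were called lower in miR-155-/- and 17.6% in wild type kidneys. The summed linear level of the intercalated cell markers was 10.5 to 27.0 at 24 h against 33.5 to 42.8 with saline in miR-155-/- kidneys, and 22.6 to 32.2 against 34.3 to 41.1 in wild type kidneys. For the thick ascending limb it was 51.7 to 69.1 against 151 to 220 in miR-155-/- kidneys and 35.6 to 68.8 against 174 to 201 in wild type kidneys. For the distal convoluted and connecting tubule it was 24.8 to 36.2 against 51.2 to 67.1 in miR-155-/- and 17.1 to 34.3 against 49.7 to 63.7 in wild type kidneys. For the proximal tubule it was 220 to 324 against 398 to 609 in miR-155-/- and 196 to 277 against 502 to 539 in wild type kidneys. The 4 other principal cell genes summed to 16.6 to 22.3 against 11.3 to 25.1 in miR-155-/- and 14.6 to 18.3 against 14.7 to 34.3 in wild type kidneys. Every marker of these 5 lists was well above background in each group on at least 1 array. The part of other cell types in the members' differences was not tested.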

How the data were processed

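Total RNA of whole kidney was hybridised to Agilent whole mouse genome 4x44k version 2 arrays, 1 colour (Cy3), per the labels. Per the file headers, scans were quantified in Feature Extraction (version 10.7.3.1, protocol GE1_107_Sep09). The intensity used is the deposited processed signal, background-subtracted by that software. A table of linear intensity that the authors deposited correlated on the log scale with the processed signal at 1.00 on each array, had an array 75th percentile of 999 to 1000, was not centred by gene, and served as an alternative.

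Symbols came from RefSeq (GRCm38.p6) through the probes' transcript accessions, for 27234 of 39429 probes. The log2 intensity minus the array's 75th percentile (1531 to 2647 in intensity) was computed here from the deposited values. Between 59 and 976 spots per array carried an outlier flag and were dropped, and 0 were saturated. Repeat spots were averaged by probe, and the brightest probe stood for a gene. Of the 9 genes, 7 had 1 probe and 2 had 2, and 2 of the 288 values were missing. A gene was tested if well above background on all 4 arrays of a group, with at least 3 values in each group. Means of 8 groups were fitted over 32 arrays with limma 3.58.1 in R 4.3.3 (lmFit, contrasts.fit, eBayes with trend, 2-sided, 24 residual degrees of freedom) in 15 comparisons, with Benjamini-Hochberg adjustment over 23743 genes. The number of arrays limits the precision. The fit was tested on simulated data.

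The named genes are the 9 genes in every comparison, up to 4 called genes of each pathway list by smallest adjusted p, 11 fixed pathway genes, and the 5 genes most alike to Aqp2 and to Scnn1g over group means. Gata3, Hoxb7, Slc14a1, Ptger1, Slc6a12, Slc12a1 and the urothelial genes, and list genes named in further comparisons, were named after their values were seen. Some genes that the rule names are not reported here. The members, lists and tests were chosen with earlier results of these data known. Normexp was run with an offset of 50 on the median signal in place of the planned mean signal, which was not used here. Alternatives covered background, scaling, filters, probes, slide, replicate block, arrays in the fit and weights.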

Additional observations from a re-analysis of the deposited data

Results flagged for a closer look

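Among 70 groups of 4 checked, 5 held an animal that Dixon's test set apart at its 95% critical value, and chance gives about 1 in 20. For Scnn1g, miR-155-/- replicate 4 at 72 h lay at -4.82 where the other 3 lay between -3.17 and -2.89. Wild type replicate 2 at 72 h lay at -4.66, with the others between -2.84 and -2.60, and wild type replicate 2 at 0 h lay at -2.65, with the others between -4.86 and -4.61. These arrays were on slides 1, 5 and 4 in that order. For Hsd11b2, miR-155-/- replicate 3 at 48 h lay at -5.57, with the others between -1.73 and -1.21, on the array that stood apart over all genes. Wild type replicate 4 at 0 h lay at -0.51, with the others between -0.68 and -0.65.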

How the results depend on the processing

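Of the 22 called differences of the 9 genes, those of Aqp3 and Scnn1a at 24 h in both genotypes and at 48 h in miR-155-/- kidneys, of Aqp3 at 48 h and Aqp2 at 24 h in wild type kidneys, of Scnn1b at 72 h against 24 h in both genotypes and of Aqp2, Aqp3 and Scnn1a at 72 h against 24 h in wild type kidneys stayed past the threshold in all 15 refits and with each of the 8 arrays of the compared groups left out. No result turned its direction past a threshold. At 72 h against saline the count for miR-155-/- kidneys was 0 and became 1 with normexp, 2 with slide as a fixed block, 1 with slide as a random block, 6 with array weights, 5 with the compared groups alone and 5 with both arrays that stood apart left out. In wild type kidneys it was 0 and became 2, 1, 3, 4 and 2 under the last 5 of these. At 48 h the count of 4 in miR-155-/- kidneys became 2 with normexp and 2 with the groups alone, and the count of 2 in wild type kidneys became 1 with the array median, 6 with array weights, 4 with the groups alone and 4 without both arrays. At 24 h the wild type count of 4 became 8 with array weights, and the miR-155-/- count at 72 h against 24 h, 3, became 1 with normexp, with the array median and with the fixed slide block. The share of all genes called in either direction moved too. In miR-155-/- kidneys at 72 h array weights took it from 35.2% to 50.4%. In wild type kidneys at 24, 48 and 72 h they took it from 38.7%, 23.8% and 25.4% to 56.9%, 47.6% and 52.4%. In the same order it was 41.7%, 48.9%, 33.3% and 41% with the groups alone, and 46.9%, 49.8%, 36.9% and 37.9% without both arrays. At 48 h in miR-155-/- kidneys it fell from 43.8% to 21.7% with normexp and to 24.4% with the groups alone. Leaving out 1 array at a time, the counts ranged over 3 to 5 (miR-155-/-, 24 h), 2 to 5 (48 h), 0 to 1 (72 h), 1 to 2 (wild type, 48 h) and 1 to 3 (miR-155-/-, 72 h against 24 h). The count at 24 h in wild type kidneys stayed at 4 with any single array left out. That comparison gained Hsd11b2 and Nr3c2 with the groups alone and without both arrays, and Nr3c2 with the slide as a fixed or random block. Genotype and interaction counts stayed at 0 in all of these settings. Normexp moved the median of all genes by up to 0.36 (miR-155-/-, 48 h against saline), and the array median moved it by -0.11 (miR-155-/-, 72 h against 24 h). Refits without some arrays estimate the spread from fewer arrays by construction, and the cause of the other changes was not tested. With the replicate number as a block the counts in miR-155-/- kidneys were 5, 4 and 0 at 24, 48 and 72 h and in wild type kidneys 4, 2 and 0, and it changed no call. The replicate numbers gave no sign of pairing animals. Same-numbered arrays of different groups deviated with r from -0.55 to 0.59 (median 0.004), over 0.1 in 33 of 112 pairs. Arrays of different groups with other numbers gave r from -0.64 to 0.69 (median -0.005), over 0.1 in 110 of 336 pairs. Scnn1g and Nr3c2, with dim probes, are limited by signal over background.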
